A study of Mus musculus with 8 samples.

Results

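The genes described here are 10 members of the Sox family, the transcription factors that share the DNA-binding HMG box of the testis-determining factor SRY. They were Sox11, Sox4, Sox2, Sox5, Sox6, Sox7, Sox9, Sox13, Sox17 and Sox18, found by symbol in a deposited table of 15960 gene symbols from bulk RNA sequencing of whole mouse lung, and all 10 were listed. The set was chosen by symbol around Sox11, and Sox11 was selected on its counts in BHLKO against Alb-Cre, which were already known. The levels and differences of the 10 genes in this contrast are therefore a description, with no test.

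SOX proteins bend DNA and act with partner factors, and the family is divided by sequence into groups. The SoxC factors SOX4 and SOX11 act in embryonic progenitors, neurons and mesenchyme. The SoxB1 factor SOX2 marks the conducting airway epithelium of the lung and its basal cells. The SoxF factors SOX7, SOX17 and SOX18 act in endothelium, where they take part in arterial and lymphatic development. The SoxE factor SOX9 acts in the distal tips of the embryonic lung and, with the SoxD factors SOX5 and SOX6, in cartilage, which in the lung surrounds the large airways.

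The tested libraries were 4 from BHLKO mice, which carry the Alb-Cre driver with floxed Hif1a and floxed Bmal1 (Hif1_alpha fl/fl, Bmal1fl/fl). They were set against 4 from mice labelled Alb-Cre alone, so the driver was common to both groups. Cre driven by the albumin promoter acts in hepatocytes, so lung cells were not its target. All mice were C57BL/6, were 3 to 5 months old, and had lived for 2 weeks in 12 h light and 12 h dark. The lights stayed off on the day of collection and every sample carries circadian time 16. BHLKO libraries are numbered 2, 3, 4 and 5 and Alb-Cre libraries 1, 2, 4 and 5. The labels do not say that each library came from a separate animal, so a p-value here measures only how these libraries vary, which may be technical.

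Total counts per library ran from 6838427 in Alb-Cre replicate 2 to 15430372 in Alb-Cre replicate 5. On the first principal component, which held 28% of the variance, BHLKO libraries scored 14.6 to 30.0 and Alb-Cre libraries −32.3 to −26.2, except Alb-Cre replicate 5, which stood apart at −6.5. The floxed genes were at 5.62 to 11.1 CPM in BHLKO and 5.63 to 8.58 CPM in Alb-Cre for Arntl, the gene symbol of Bmal1, and at 12.2 to 14.8 and 10.2 to 14.6 CPM in the same order for Hif1a. Counts in lung do not check a deletion made in hepatocytes. Of the 13517 genes tested, 306 (2.26%) passed an adjusted p of 0.05 in edgeR's quasi-likelihood test, 140 higher and 166 lower in BHLKO. Without Alb-Cre replicate 5 the count was 520, and without Alb-Cre replicate 1 it was 131. Levels are CPM, counts scaled to a common library size of 1000000 with edgeR's TMM factors, and log2 fold changes are BHLKO over Alb-Cre with the SE of the fit.

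Sox11 was low in BHLKO lung and well expressed in Alb-Cre lung. It is a gene of 1 exon on the minus strand (mm10 chromosome 12, 27334264 to 27342574), and no other annotated gene overlaps it. Its promoter and that of Sox4, the other member of its group in the set, are shown because these close relatives had different values. The windows, credited to RefSeq (GRCm38.p6), run from 250 bases before to 50 bases after the start that RefSeq annotates and are chr12:27342669-27342968 and chr13:28953650-28953949, both on the minus strand, written 5′ to 3′. For Sox11 that start lies upstream of the GENCODE gene given above, so its window lies wholly outside that gene. Capitals mark matches on either strand to GCGTG, a core of the hypoxia response element, or to CCAAT, the CCAAT box.
Sox11: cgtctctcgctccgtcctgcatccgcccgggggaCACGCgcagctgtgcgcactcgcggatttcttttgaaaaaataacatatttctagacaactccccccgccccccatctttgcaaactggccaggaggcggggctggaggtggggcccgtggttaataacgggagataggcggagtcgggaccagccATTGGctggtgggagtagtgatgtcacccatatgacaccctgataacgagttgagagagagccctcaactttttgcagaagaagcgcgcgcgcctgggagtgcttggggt
Sox4: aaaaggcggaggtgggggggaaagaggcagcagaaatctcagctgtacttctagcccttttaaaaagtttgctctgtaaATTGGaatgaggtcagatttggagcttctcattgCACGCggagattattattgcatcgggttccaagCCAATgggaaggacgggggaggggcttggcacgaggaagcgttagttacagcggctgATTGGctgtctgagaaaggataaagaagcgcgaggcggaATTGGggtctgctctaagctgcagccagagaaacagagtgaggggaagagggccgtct

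Each window held 1 GCGTG match, on the strand opposite to the gene, and 32.4% of the 32851 promoter windows in the table held at least 1. The Sox11 window had 1 CCAAT match, whose first base lay 60 bases before the start, and the Sox4 window had 4, against 37.4% of windows with at least 1. Neither window held the E-box CACGTG (7.15% of windows), the other hypoxia core ACGTG (19.6%) or the Sox core AACAAT (10.7%). The core ACGTG lies within the E-box, so a window with the E-box also counts for it. A match is a run of letters and not a measured site. Promoter windows were found for 6 of the 10 genes.

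The Sox11 and Sox4 transcripts share stretches of sequence, and reads that lie wholly inside one cannot be told apart. Their longest identical run was 48 bases, bases 362 to 409 of the 8311-base Sox11 transcript (chr12:27342166-27342213), inside its coding part. It reads as follows.
Shared run: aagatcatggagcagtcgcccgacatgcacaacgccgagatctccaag

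The longest run shared with any other Sox gene was 30 bases, with Sox1, which is not among the listed genes. Read length is not given in the sources used here.

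In the BHLKO libraries Sox11 had 63, 56, 33 and 49 counts, which is 5.13, 4.82, 3.40 and 4.17 CPM in replicates 2, 3, 4 and 5. In the Alb-Cre libraries it had 453, 297, 328 and 454 counts, which is 33.7, 42.9, 28.1 and 30.1 CPM in replicates 1, 2, 4 and 5. All 4 BHLKO libraries lay far below all 4 Alb-Cre libraries, and the groups did not overlap. The mean was 4.38 ± 0.769 CPM in BHLKO and 33.7 ± 6.56 CPM in Alb-Cre (SD, n = 4 each), a log2 fold change of −2.93 ± 0.19, or 7.62-fold lower. Alb-Cre replicate 5, which stood apart over all genes, did not do so for Sox11. Without it the groups stay apart, and over the fits that left out 1 library the log2 fold change lay between −3.01 and −2.80. Among all tested genes 5 had a lower fitted log2 fold change than Sox11. In bulk tissue, fewer cells of a type and less RNA per cell cannot be told apart.

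**Figure D1:**
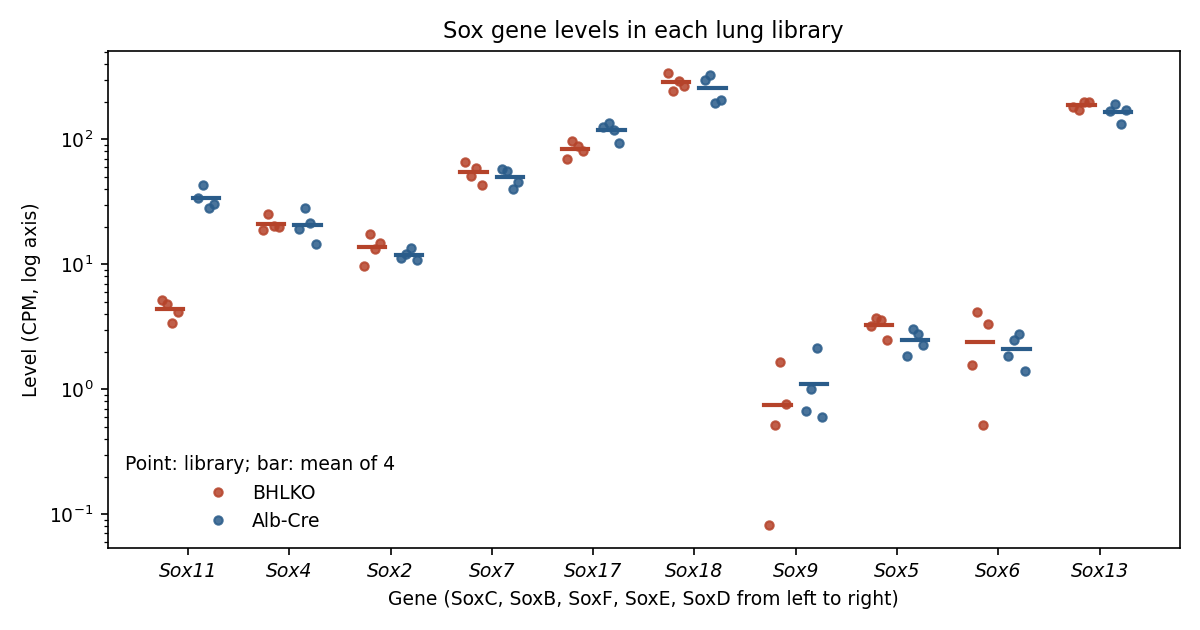
Level of each of the 10 Sox genes in each library in CPM (log axis), with BHLKO left of Alb-Cre for each gene; points are libraries and bars are means of 4. Sox11 lies at 3.40 to 5.13 CPM in BHLKO and 28.1 to 42.9 CPM in Alb-Cre, while the groups of the other 9 genes overlap; heights of different genes are not corrected for length.

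Sox4 (chromosome 13, 28948919 to 28953713), which acts in lymphocyte and epithelial progenitors among others, did not share this difference. It was at 18.7, 25.4, 20.1 and 19.9 CPM in BHLKO replicates 2, 3, 4 and 5. In Alb-Cre replicates 1, 2, 4 and 5 it was at 19.3, 28.0, 21.2 and 14.6 CPM. The BHLKO libraries lay within the Alb-Cre range, whose ends were Alb-Cre replicates 2 and 5. The log2 fold change was 0.028 ± 0.18, and it was −0.11 without Alb-Cre replicate 5 and 0.20 without Alb-Cre replicate 2.

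Sox11 was also set against Sox4 in the same library, which removes the library size. Sox4 was nearly level between the groups, so this ratio restates the Sox11 difference and is no separate support. Its log2 ratio to Sox4 was −1.83, −2.36, −2.50 and −2.21 in BHLKO replicates 2, 3, 4 and 5. In Alb-Cre replicates 1, 2, 4 and 5 the ratio was 0.80, 0.61, 0.41 and 1.03. Sox11 had fewer reads than Sox4 in every BHLKO library and more in every Alb-Cre library. The mean ratio was −2.22 ± 0.29 in BHLKO and 0.71 ± 0.27 in Alb-Cre (SD, n = 4 each), a difference of −2.94.

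**Figure D2:**
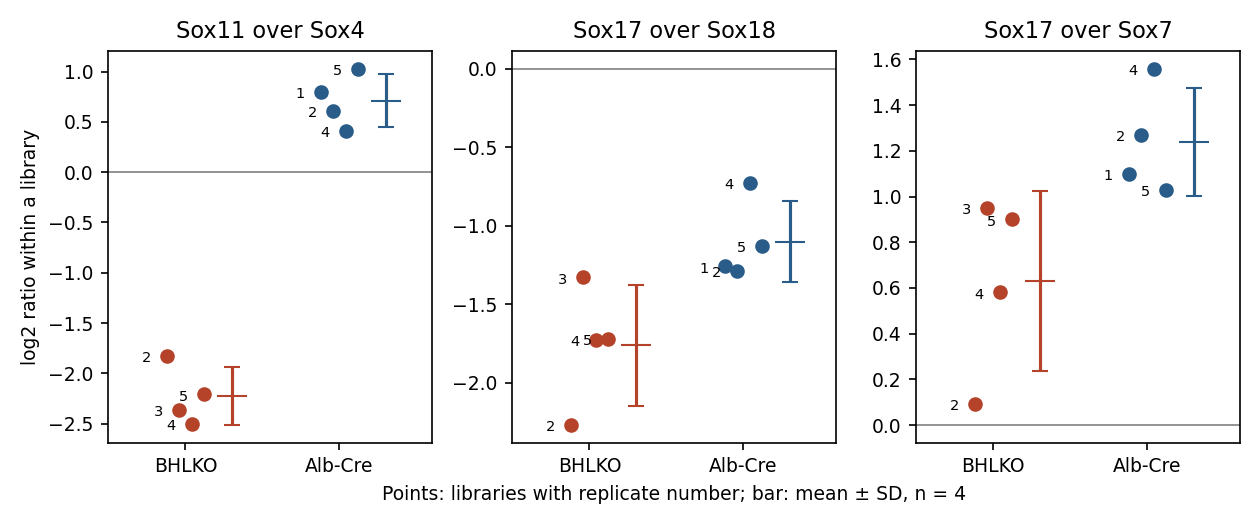
Log2 ratio of 2 Sox genes within each library for BHLKO (left) and Alb-Cre (right); points carry the replicate number and bars are mean ± SD (n = 4). Sox11 over Sox4 averages −2.22 in BHLKO and 0.71 in Alb-Cre, and Sox17 over Sox18 averages −1.76 in BHLKO and −1.10 in Alb-Cre.

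Of the 10 genes, 9 passed the filter on low counts and 1 of them, Sox11, was past the threshold over all genes, beside 2.26% of all tested genes (1.23% lower and 1.04% higher in BHLKO). The same 1 of 9 had groups that did not overlap, beside 9.62% of all tested genes. The contrast helped to choose the set, so nothing is read from these counts. The other 8 tested genes had log2 fold changes from −0.48 to 0.40, of which 7 lay above 0.

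**Figure D3:**
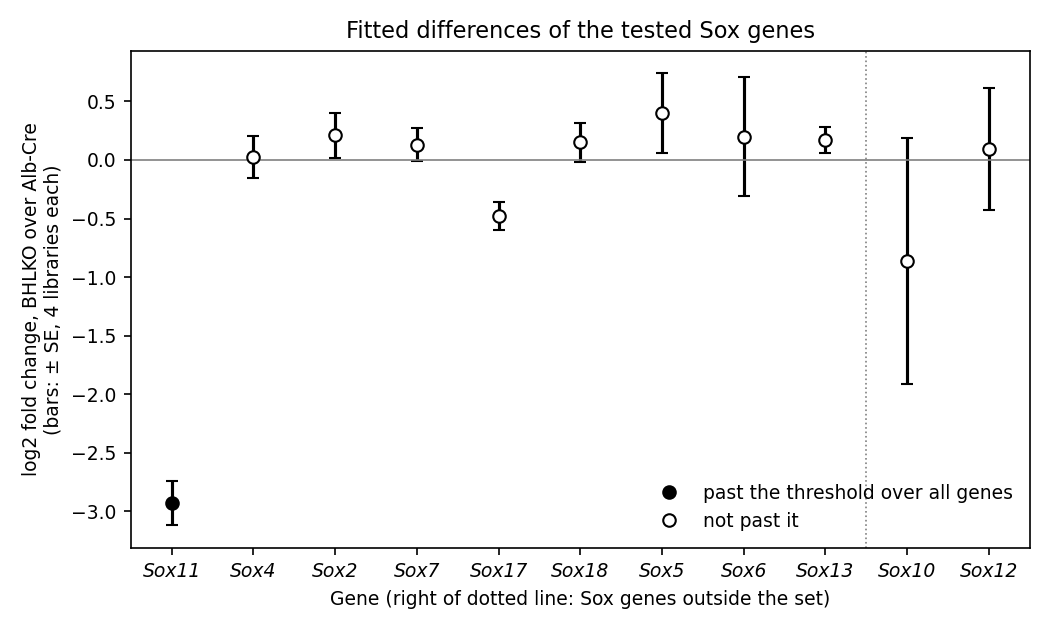
Fitted log2 fold change, BHLKO over Alb-Cre, of the 9 tested genes of the set and of Sox10 and Sox12 (right of the dotted line); bars are ± SE and the filled point is past the threshold over all genes. Sox11 lies at −2.93 and Sox17 at −0.48, and the other genes of the set lie between 0.028 and 0.40.

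Per length of annotated exons, the endothelial factor Sox18 had the highest level of the set and Sox6 the lowest in both groups. In BHLKO lung Sox18 averaged 176 CPM per kb, Sox13 43.4, Sox17 17.6, Sox7 16.5, Sox2 6.68, Sox4 4.38, Sox11 0.527, Sox5 0.225, Sox9 0.182 and Sox6 0.160 CPM per kb. In Alb-Cre lung the order was Sox18 at 159 CPM per kb, Sox13 at 38.6, Sox17 at 24.6, Sox7 at 15.1, Sox2 at 5.78, Sox4 at 4.33, Sox11 at 4.06, Sox9 at 0.267, Sox5 at 0.172 and Sox6 at 0.142 CPM per kb. Sox11 held the same place in both orders but a different distance from its neighbours. In BHLKO its 0.409 to 0.618 CPM per kb lay below the 3.89 to 5.29 of Sox4, whereas in Alb-Cre its 3.39 to 5.17 overlapped the 3.05 to 5.85 of Sox4. Sox17 and Sox7 overlapped in BHLKO (14.6 to 20.4 and 13.2 to 19.8 CPM per kb) and did not in Alb-Cre (19.5 to 28.0 and 12.1 to 17.6). Sox2 overlapped Sox4, and Sox9, Sox5 and Sox6 overlapped each other, in both groups.

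Sox2 (chromosome 3, 34650405 to 34652461) was read at 9.70, 17.3, 13.2 and 14.8 CPM in BHLKO replicates 2, 3, 4 and 5. It was at 11.2, 12.0, 13.6 and 10.8 CPM in Alb-Cre replicates 1, 2, 4 and 5. Both the lowest and the highest value were in BHLKO, so the groups overlapped (log2 fold change 0.21 ± 0.19). The gene lies inside the span of Sox2ot, a non-coding gene on the same strand. Overlap of their exons was not checked, and reads from such a stretch could not be told apart. Sox2ot was listed with 8 counts over the BHLKO libraries and 10 over the Alb-Cre libraries.

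Sox17, of the endothelial group, had the lowest log2 fold change of the set after Sox11. Sox17 (chromosome 1, 4490931 to 4497354) was at 69.8, 97.4, 87.7 and 81.0 CPM in BHLKO replicates 2, 3, 4 and 5. It was at 125, 134, 118 and 93.2 CPM in Alb-Cre replicates 1, 2, 4 and 5. The overlap of the groups rested on BHLKO replicate 3 and Alb-Cre replicate 5. The mean was 84.0 ± 11.6 CPM in BHLKO and 117 ± 17.4 CPM in Alb-Cre (SD, n = 4 each), a log2 fold change of −0.48 ± 0.12. It was −0.58 without Alb-Cre replicate 5, −0.56 without BHLKO replicate 3 and −0.40 without BHLKO replicate 2. The gene missed the threshold over all genes in the edgeR fit reported here. It passed in 4 of 8 other fits with all libraries (other scaling, filters or DESeq2) and in 2 of 8 that left out a library, Alb-Cre replicate 5 or BHLKO replicate 3.

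The other endothelial factors had log2 fold changes above 0. Sox18 (chromosome 2, 181669836 to 181671640), known for lymphatic and vascular development, was at 337, 245, 292 and 267 CPM in BHLKO replicates 2, 3, 4 and 5. It was at 299, 328, 196 and 205 CPM in Alb-Cre replicates 1, 2, 4 and 5. The groups overlapped and the log2 fold change was 0.15 ± 0.17. Sox7 (chromosome 14, 63943673 to 63950732), an early endothelial factor, was at 65.5, 50.4, 58.8 and 43.4 CPM in BHLKO and at 58.1, 55.4, 40.0 and 45.6 CPM in Alb-Cre, in the same library order (log2 fold change 0.13 ± 0.14). BHLKO replicate 2 had the highest Sox18 and Sox7 and the lowest Sox17 of all 8 libraries.

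Within a library Sox17 therefore took a smaller part of the SoxF reads in BHLKO. It held 14.8%, 24.8%, 20.0% and 20.7% of the counts of Sox7, Sox17 and Sox18 in BHLKO replicates 2, 3, 4 and 5. It held 25.9%, 25.9%, 33.3% and 27.1% in Alb-Cre replicates 1, 2, 4 and 5. The groups did not overlap, with BHLKO replicate 3 close to Alb-Cre replicates 1 and 2. This share and the ratios of Sox17 to Sox18 and Sox7 restate the levels given above and are no separate support. The log2 ratio of Sox17 to Sox18 averaged −1.76 ± 0.39 in BHLKO and −1.10 ± 0.26 in Alb-Cre, and that of Sox17 to Sox7 0.63 ± 0.39 and 1.24 ± 0.23 in the same order (SD, n = 4 each). Summed over the 11 endothelial markers, the level was 6030 to 8050 CPM in BHLKO and 5340 to 6700 CPM in Alb-Cre. The part of endothelial content in these values was not tested.

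Sox9 (chromosome 11, 112782224 to 112787760) was listed but too low to be tested, with 1, 6, 16 and 9 counts in BHLKO and 9, 7, 25 and 9 counts in Alb-Cre. Sox5 (chromosome 6, 143828425 to 144781977) was at 2.47 to 3.70 CPM in BHLKO and 1.86 to 3.04 CPM in Alb-Cre (log2 fold change 0.40 ± 0.34). Sox6 (chromosome 7, 115470872 to 116038796), a partner of SOX5 in cartilage and a regulator of globin genes, was at 0.515 to 4.13 CPM in BHLKO and 1.39 to 2.75 CPM in Alb-Cre (0.20 ± 0.51). The Sox6 value turned to −0.20 without BHLKO replicate 3. Its gene start lies 2.83 Mb from that of Arntl, while Sox11 and Hif1a lie 46.6 Mb apart on chromosome 12.

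Sox13 (chromosome 1, 133382303 to 133424377), a SoxD factor with a known role in gamma-delta T cells, was the second most abundant of the set. It was at 181, 171, 200 and 197 CPM in BHLKO replicates 2, 3, 4 and 5. It was at 168, 192, 133 and 173 CPM in Alb-Cre replicates 1, 2, 4 and 5. The lowest value was in Alb-Cre replicate 4, and the groups overlapped (log2 fold change 0.17 ± 0.11).

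Of the other Sox genes, 5 of 10 were listed and 0 of the 2 tested passed in edgeR, beside 2.26% of all tested genes. Of these 2, 0 had an unadjusted p under 0.05, and DESeq2 and limma-voom also called 0. Sox10, the Schwann cell factor, was at 1.58 ± 1.65 CPM in BHLKO and 2.85 ± 3.13 CPM in Alb-Cre, and its sign turned without Alb-Cre replicate 4 (log2 0.041). Sox12, the third SoxC gene, was at 1.95 ± 1.28 CPM in BHLKO and 1.80 ± 0.704 CPM in Alb-Cre (SD, n = 4 each; log2 fold change 0.092 ± 0.52, with a sign that turned in 5 other fits). Sox8, Sox15 and Sox21 were listed below the filter, with 1, 12 and 31 counts over the BHLKO libraries and 7, 28 and 58 over the Alb-Cre libraries. The antisense gene Sox6os, inside Sox6, was at 2.42 ± 1.59 CPM in BHLKO and 2.51 ± 2.66 CPM in Alb-Cre. Whether the counting used strand is not given in the sources used here. Overlap of exons of Sox6 and Sox6os was not checked, and without strand, reads from such a stretch could not be told apart.

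Of the 10 genes formed by the 5 nearest tested genes on each side of Sox11, 3 rose, 1 fell and 6 did not pass, beside 2.26% called among all tested genes. The region of Sox11 was part of the earlier results, so this count is no separate support. Rsad2, an interferon-induced antiviral gene, rose to 12.8 ± 3.12 CPM in BHLKO, against 3.96 ± 1.51 CPM in Alb-Cre (edgeR adjusted p = 0.00564). Its start lies 0.886 Mb from that of Sox11. Adi1, an enzyme of methionine salvage 1.33 Mb away, rose to 140 ± 16.5 CPM in BHLKO, against 77.5 ± 12.8 CPM in Alb-Cre (edgeR adjusted p = 0.00124). Colec11, a collectin of innate immunity, rose to 4.44 ± 0.185 CPM in BHLKO, against 1.69 ± 0.300 CPM in Alb-Cre (edgeR adjusted p = 0.0298). That call was lost on leaving out any library but Alb-Cre replicate 5, with log2 fold changes of 1.29 to 1.46. Trappc12, a vesicle tethering subunit, fell to 35.2 ± 2.88 CPM in BHLKO, against 52.6 ± 2.35 CPM in Alb-Cre (edgeR adjusted p = 0.00653). The calls of Rsad2, Adi1 and Trappc12 were kept in all 8 fits that left out a library.

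The neighbours that did not pass lay among these genes. Cmpk2, the nearest on the lower side at 0.873 Mb, was at 8.39 ± 1.86 CPM in BHLKO and 11.5 ± 2.54 CPM in Alb-Cre (log2 −0.45 ± 0.22). Rps7 (−0.19 ± 0.10), Rnaseh1 (0.11 ± 0.12), Id2 (−0.26 ± 0.11), Rnf144a (0.032 ± 0.12) and Kidins220 (−0.056 ± 0.12) had log2 fold changes within 0.26 of 0. The median over the 10 was −0.012, and no neighbour had a log2 fold change as low as that of Sox11. Where the replicate number was added as a block, 1 of the 10 passed. For the other 9 genes of the set, only the nearest tested gene on each side was taken. Those of Sox11 were Cmpk2 and Colec11, of which Colec11 passed. Of the 17 such neighbours of the other 9 genes, 0 passed in edgeR, beside 2.26% of all tested genes. Of these 17, 3 had an unadjusted p under 0.05, and DESeq2 called 1 and limma-voom 0.

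**Figure D4:**
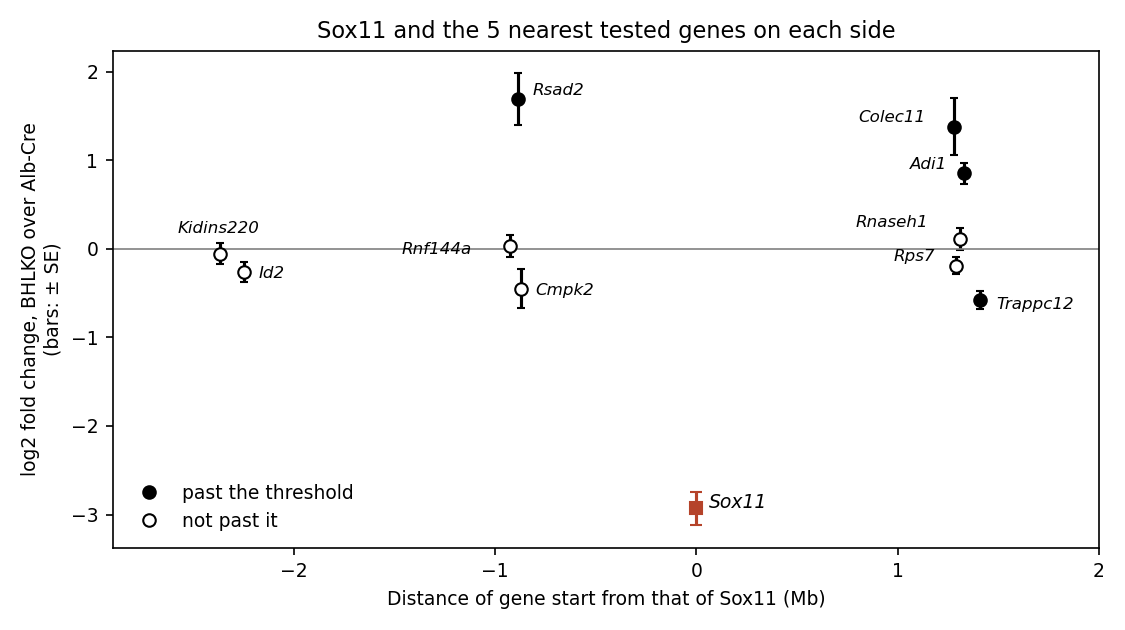
Log2 fold change, BHLKO over Alb-Cre (± SE), of Sox11 (square) and of the 5 nearest tested genes on each side, placed by the distance of their starts from that of Sox11 in Mb; filled circles passed the threshold over all genes. Sox11 lies at −2.93, Rsad2 at 1.69, Colec11 at 1.38, Adi1 at 0.85 and Trappc12 at −0.58.

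Genes that act with or after the Sox factors were taken from lists. Among all tested genes 2.26% were called, so lists this short could well hold 0 calls, and nothing is read from that. Of 3 tested SoxC targets and partners known from other tissues, 0 passed in edgeR and 0 had an unadjusted p under 0.05 (median log2 −0.055, beside −0.0017 over all tested genes). Tead2, a direct target of SOX4 and SOX11 in mouse embryos, was at 56.7 ± 8.80 CPM in BHLKO and 59.2 ± 10.6 CPM in Alb-Cre, and its log2 fold change of −0.062 turned to 0.027 without BHLKO replicate 2 and to 0.029 without Alb-Cre replicate 5. Nes, an intermediate filament gene, was at 180 ± 27.0 CPM in BHLKO and 170 ± 15.4 CPM in Alb-Cre. Of 10 tested SoxF targets and partners in endothelium, 0 passed in edgeR and 1, Notch1, had an unadjusted p under 0.05 (median 0.10). Notch1, a receptor gene of arterial endothelium, was at 216 ± 22.6 CPM in BHLKO and 179 ± 28.5 CPM in Alb-Cre, and the adhesion gene Vcam1 at 28.2 ± 4.09 and 34.1 ± 4.65 CPM in the same order. Of 2 tested cartilage genes, 0 passed in edgeR and 0 had an unadjusted p under 0.05. DESeq2 and limma-voom also called 0 genes in these 3 lists. They were Col9a3 (log2 −0.80 ± 0.62) and Col11a2 (−0.039 ± 0.45, with a sign that turned in 4 other fits), and Col2a1 and Acan were listed below the filter.

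Of the alveolar, endothelial and mesenchymal markers, 3 rose, 1 fell and the others did not pass, beside 2.26% called among all tested genes. Of 10 alveolar genes, Pdpn, of type 1 cells, rose to 46.3 ± 3.14 CPM in BHLKO, against 33.2 ± 2.87 CPM in Alb-Cre. Aqp5, the water channel of the same cells, was lower, at 319 ± 30.2 CPM in BHLKO and 414 ± 62.1 CPM in Alb-Cre, without overlap of the groups, but did not pass (edgeR adjusted p = 0.0878). The other type 1 markers Ager and Hopx had log2 fold changes of 0.12 and 0.027. Nkx2-1, the lung epithelial transcription factor, fell to 60.6 ± 6.24 CPM in BHLKO, against 198 ± 10.4 CPM in Alb-Cre (edgeR adjusted p = 3.91e-08), and the other 8 did not pass. The summed alveolar level was 46800 to 51200 CPM in BHLKO and 42700 to 52100 CPM in Alb-Cre. Most of it was the surfactant gene Sftpc, which averaged 34300 CPM in BHLKO and 33300 CPM in Alb-Cre. Of 11 endothelial genes, Plvap, of endothelial diaphragms, rose to 1410 ± 122 CPM in BHLKO, against 884 ± 123 CPM in Alb-Cre (edgeR adjusted p = 0.00253), and 10 did not pass (median 0.17). Of 10 mesenchymal genes, Pdgfra, a fibroblast receptor, rose to 160 ± 11.8 CPM in BHLKO, against 115 ± 13 CPM in Alb-Cre, and 9 did not pass (median 0.24). The Wnt ligand gene Wnt2 was at 32.1 ± 3.28 CPM in BHLKO and 23.2 ± 2.87 CPM in Alb-Cre and did not pass. The call of Pdpn was lost without BHLKO replicate 2, 4 or 5 or Alb-Cre replicate 1 or 2 (log2 0.43 to 0.50). That of Pdgfra was lost without BHLKO replicate 2, 4 or 5 or Alb-Cre replicate 1 or 4 (0.41 to 0.47).

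Of the blood cell genes, 4 passed the threshold, beside 2.26% called among all tested genes. Of 10 leukocyte genes 3 fell, 0 rose and 7 did not pass (median −1.39), and their summed level was 134 to 238 CPM in BHLKO and 260 to 348 CPM in Alb-Cre, with no marker at 0 in a whole group. Cd8a fell to 0.842 ± 0.334 CPM in BHLKO, against 4.59 ± 1.99 CPM in Alb-Cre, and Cd4 fell to 4.87 ± 1.62 CPM, against 13.8 ± 4.92 CPM. Ptprc, the pan-leukocyte CD45 gene, fell to 37.0 ± 8.96 CPM in BHLKO, against 60.2 ± 8.25 CPM in Alb-Cre (edgeR adjusted p = 0.0273). Of 3 tested erythroid genes Alas2, of heme synthesis, rose to 764 ± 72.8 CPM in BHLKO, against 421 ± 62.5 CPM in Alb-Cre. The summed erythroid level, most of it Alas2, was 723 to 902 CPM in BHLKO and 360 to 524 CPM in Alb-Cre. The call of Ptprc was lost without BHLKO replicate 2, 4 or 5 or Alb-Cre replicate 2 or 4 (log2 −0.68 to −0.60), and that of Cd4 without BHLKO replicate 4 or Alb-Cre replicate 1 or 4 (−1.52 to −1.26). The part of these cells in the Sox11 difference was not tested.

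The lists of other cell types and tissues had 0 calls in edgeR, beside 2.26% called among all tested genes. Of 4 tested Schwann cell genes (median −0.30), the adhesion gene Ncam1 was at 4.41 ± 0.836 CPM in BHLKO and 6.12 ± 1.46 CPM in Alb-Cre. The list summed to 56.4 to 63.2 CPM in BHLKO and 53.3 to 80.9 CPM in Alb-Cre. Of neuronal and neuroendocrine genes 4 of 9 were tested (median 0.074), with Calca at 3.08 ± 1.37 CPM in BHLKO and 1.89 ± 0.693 CPM in Alb-Cre and Stmn2 at 36.6 ± 10.5 and 33.4 ± 4.74 CPM in the same order. Of 9 tested airway genes (median −0.15) the club cell oxidase gene Cyp2f2 was at 8670 ± 1440 CPM in BHLKO and 6600 ± 1100 CPM in Alb-Cre. Bpifa1, a secreted airway protein, was at 528 ± 524 CPM in BHLKO and 2660 ± 2920 CPM in Alb-Cre. Proliferation genes had a median of 0.016 over 5 tested. Genes of neighbouring tissues went both ways, with 2 of 8 tested above 0 and 6 below (median −1.06). The 2 above 0 were the heart genes Actc1, at 1200 ± 610 CPM in BHLKO and 470 ± 160 CPM in Alb-Cre, and Myh6, at 435 ± 137 and 242 ± 74.3 CPM in the same order. The list summed to 873 to 2700 CPM in BHLKO and 708 to 1270 CPM in Alb-Cre. Most of that sum was Actc1 and Myh6, so it ran opposite to the list median. Over these 5 lists 5 of 30 tested genes had an unadjusted p under 0.05, DESeq2 called 1 gene and limma-voom 0.

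**Figure D5:**
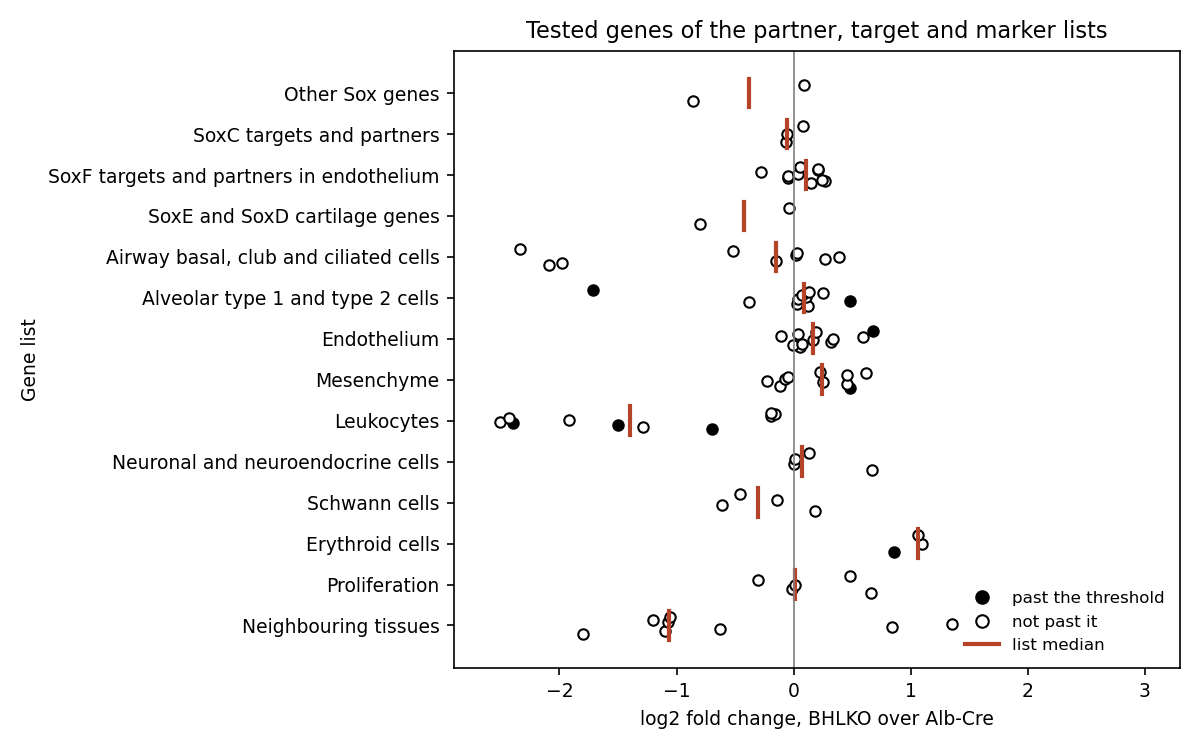
Log2 fold change, BHLKO over Alb-Cre, of the tested genes of each list (circles, filled where past the threshold over all genes), with the list median as a red bar. The leukocyte median lies at −1.39 and the erythroid median at 1.06, while the SoxC and SoxF target lists lie at −0.055 and 0.10.

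The genes most like Sox11 were sought over the 13248 tested genes that averaged 1 CPM or more. After each genotype's mean was subtracted, the highest Pearson r with Sox11 over the 8 libraries belonged to Nhlrc2 (0.957), Ust, Gart, Stk24 and Vps50. The 5 genes share no call and were nearly level between the genotypes (log2 −0.17 to 0.13). Leaving out 1 library kept at most 2 of these 5 among the top 5, so the choice rests on single libraries. Without subtracting the means, the absolute r was highest for Dpt (−0.996), the matrix protein dermatopontin, followed by Trim34a (0.989), Trim5 (0.989), Colec11 (−0.987) and Trim12a (0.986). Those 5 differ between the genotypes, and their r without subtracting the means reflects mostly the 2 group levels. With the means subtracted, r was −0.924 for Dpt, 0.546 for Trim34a, 0.697 for Trim5, −0.676 for Colec11 and −0.537 for Trim12a. The search with the means subtracted ranked r with its sign, so a negative r such as that of Dpt could not lead it. Dpt was at 231 ± 10 CPM in BHLKO and 153 ± 9.15 CPM in Alb-Cre. Trim12a was at 0 counts in every BHLKO library and at 31.9 ± 2.60 CPM in Alb-Cre. With the means subtracted, its r therefore rests on the Alb-Cre libraries. Trim34a and Trim5 were at 0 to 0.163 and 0 to 0.172 CPM in BHLKO, near the floor. These r values are descriptions from a search over all genes and carry no p.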

How the data were processed

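RNA from whole lung of 4 BHLKO and 4 Alb-Cre libraries was analysed from the table deposited by the authors. Per the file headers it holds raw read counts per gene symbol and a normalized signal, which is a library's counts over a constant of that library that the authors applied. The signal columns were not used further. The build mm10 and the tools STAR 2.5.2b, DESeq2, HTSeq and cutadapt are named per the submitters' processing notes, which give neither their roles nor their order. The strand setting, read length and gene annotation were not stated by them. Every listed gene had at least 6 counts in some library, and all 16 value columns were matched to samples by the description names.

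Counts were tested with edgeR 4.0.16 (R 4.3.3): filterByExpr by group, TMM scaling, and a robust quasi-likelihood F test over 13517 genes, which hold 99.9% of counts, with Benjamini-Hochberg adjustment and a threshold of 0.05. The SE is the log2 fold change divided by the root of F. Alternatives were other scalings and filters, DESeq2 1.42.0, limma-voom (limma 3.58.1), the replicate number as a block, and leaving out each library. The code was tested on simulated data. Logarithms for ratios and likeness used a prior count of 2, and likeness took genes of at least 1 CPM. Positions and exon lengths are from GENCODE M21 (mm10), where 15642 of 15960 symbols (98.01%) matched.

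The 10 genes and all gene lists were chosen with earlier results of these data known. Named were the 10 genes, every other listed Sox gene, up to 4 genes with the smallest p of a list with a call and up to 2 of a list without, the 5 nearest tested genes on each side of Sox11, and the 5 most like it in each of 2 measures. A marker gene of these lists is not reported here, and not every other gene the rule takes is described in the text. Reads without molecular identifiers are not independent molecules.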

Additional observations from a re-analysis of the deposited data

Results flagged for a closer look

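In a group of 4 libraries, a value was singled out when its gap to the nearest other value filled more of the group's range than Dixon's 95% critical value allows, which chance gives in about 1 in 20 groups. Of 141 groups checked over the named genes, 7 were singled out. None was a level of the 10 Sox genes described.

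Sox8 was read in BHLKO replicate 2 alone of the BHLKO libraries (0.0815 CPM) and in Alb-Cre replicate 4 alone of the Alb-Cre libraries (0.601 CPM), with 0 in the others. Bpifa1 was at 7020 CPM in Alb-Cre replicate 4 and 941 to 1520 CPM in the other Alb-Cre libraries. Kidins220, a neighbour of Sox11, was at 45.8 CPM in BHLKO replicate 2 and 47.4 to 47.7 CPM in the other BHLKO libraries. Stk24 was at 74.2 CPM in Alb-Cre replicate 2 and 61.4 to 63.5 CPM in the other Alb-Cre libraries. Vps50 was at 12.4 CPM in Alb-Cre replicate 2 and 7.55 to 8.34 CPM in the others. Trim34a was at 0.163 CPM in BHLKO replicate 2 and at 0 in the other BHLKO libraries.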

How the results depend on the processing

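Sox11 passed the threshold over all genes, and kept its direction, in all 16 alternative fits. The gene was selected on this contrast in these libraries, so these passes are no separate support. Sox17 lay below 0 in all 16 and passed in 6 of them: DESeq2 size factors in edgeR, no filter on low counts, at least 1 CPM in 4 libraries, the DESeq2 test, and without BHLKO replicate 3 or Alb-Cre replicate 5. In those fits 2 of the 10 genes passed. Sox4 and Sox6 changed sign in some fits and were never past the threshold.

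The count of called genes was 692 in the DESeq2 test and 160 with the replicate block, against 306, and leaving out 1 library gave 131 (Alb-Cre replicate 1) to 520 (Alb-Cre replicate 5). Of the 8 fits without 1 library, the one without BHLKO replicate 3 (319) was the nearest to 306. The gene lists held 8 calls, 17 in the DESeq2 test and 4 to 14 on leaving out 1 library. Of the 10 neighbours of Sox11, 1 passed with the replicate block. The cause of these shifts was not tested. Same-numbered libraries did not deviate together (r of 0.038, −0.0058 and 0.022 for replicates 2, 4 and 5). So few shared numbers cannot exclude a pairing, and the fit reported here did not pair the samples.

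Values of genes that did not pass changed sign as follows, in log2. In limma-voom Sox12 was at −0.15 and Col11a2 at 0.091. With the replicate block Sox12 was at −0.054, Stmn2 at −0.13 and Rnf144a at −0.060. On leaving out 1 library the values ran from −1.82 to 0.041 for Sox10, −0.30 to 0.37 for Sox12, −0.16 to 0.029 for Tead2, −0.37 to 0.35 for Col11a2, −0.064 to 0.27 for Stmn2, −0.065 to 0.14 for Rnf144a, −0.14 to 0.050 for Kidins220, −0.25 to 0.12 for Nhlrc2 and −0.15 to 0.10 for Vps50. No called gene changed sign. Sox9, Sox5 and Sox6 had the fewest counts of the 10 genes, with 32 to 146 counts over the BHLKO libraries and 50 to 112 over the Alb-Cre libraries.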
